A study of Mus musculus with 2 samples.

Results

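The immediate early transcription factor genes Fos, Fosb, Junb, Egr1, Egr2, Egr4, Nr4a1 and Npas4, the synaptic gene Arc and the antiproliferative gene Btg2 were followed in mouse cerebral cortex. They were taken by name: every probe set of the array whose only gene symbol was one of these 10 was kept, which gave 12 of the 34945 probe sets with 1 symbol and 10 of 18193 named genes. Btg2 and Egr2 had 2 probe sets and the other genes 1. All 12 reached the signal floor of 64.2 units on both arrays, the level from which a signal counted as measured, so no member was lost to it.

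The series holds 2 Affymetrix expression arrays. One received total RNA mixed in equal parts from the cortex of 3 wild-type males and the other the same mixture from 3 males titled as Gnmt knockouts, all aged 4 weeks with a mixed 129/B6 background. The enzyme missing in such knockouts, glycine N-methyltransferase, uses S-adenosylmethionine to methylate glycine. The knockout allele, the way of killing and the time of day were not given in the sources used here. With 1 array of pooled RNA per genotype nothing could be tested, the spread between mice is not measured, and each ratio compares these 2 pools only.

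Immediate early genes are transcribed within minutes of synaptic activity, calcium entry or growth factor signals, without new protein synthesis, and most of their RNAs decay quickly. In cortical neurons the signal runs through calcium channels, glutamate receptors and kinases to the factors CREB and SRF already bound at their promoters, through the cAMP response element (CRE) and the CArG box. Most of the proteins made then act as transcription factors on slower target genes, while Arc acts at the synapse and Btg2 restrains cell division. These RNAs are widely used to map which neurons were recently active.

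Both samples had points that bear on their labels. The second sample is titled a knockout while its genotype entry reads wild-type, and the title was followed, so it is called knockout-labelled here. The Gnmt probe set gave 10 units with wild-type RNA and 21.5 with knockout-labelled RNA, both under the floor, and so could not check the genotype. Xist, which is normally transcribed from the inactive X of females, read 49.6 units with wild-type RNA and 2560.3 with knockout-labelled RNA, although both are labelled male. Of 7 pituitary hormone and marker genes with a probe set, growth hormone (Gh) had 23222.9 and 200 units, and the summed signal of the list was 31370 in the wild-type and 726 in the knockout-labelled pool. Neuronal content was compared on 9 neuronal markers with a probe set, all above the floor in both pools. Their summed signals were 100781 and 99789 units. Most of the 9 are not restricted to cortex, so they could not check the cortical label. Of these 9, 8 lay within 1.5-fold, and Tbr1, a transcription factor gene of cortical glutamatergic neurons, had 1057 and 2218.2 units, a log2 ratio of 1.06. Of 8 hippocampal markers 4 lay within 1.5-fold (summed signals 7296 and 6488). Past that fold, 3 went down, Dsp the furthest with a log2 ratio of -1.10, and 1 went up, Prox1 with 1.39. The share of hippocampus in either pool was not tested. Of 8 microglial markers 6 went down past that fold in the knockout-labelled pool and 1 went up, with a median log2 ratio of -1.07. Their summed signals were 12604 and 10677, of which Csf1r alone gave 6389.8 and 7830.1, so the sums mostly follow that gene. Of 8 astrocyte markers 4 went down past that fold and none went up, with a median of -0.38 (summed signals 71784 and 67199). Among all measured genes, 18.2% went down past that fold and 12.5% went up, shares to set beside these marker counts. The 3′ to 5′ signal ratio of the Gapdh controls was 0.93 and 1.02, and that of the beta-actin controls 3.71 and 3.76, so this index of RNA integrity was alike in both pools. The beta-actin signals themselves differed, at 9207 and 25267 units for the 3′ control. The part of any of these differences in the values below was not tested.

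The promoters of the members were searched for the elements through which this gene class is known to be induced. Those of the 5 genes with the highest ratios, of Egr2 for its CArG box and of Egr4, the one gene with a lower signal in the knockout-labelled pool, are printed here. Each window, from RefSeq on build GRCm38.p6, runs from 250 bases before the annotated start to 50 after it and is written 5′ to 3′ along the gene. The capitals mark the CRE (TGACGTCA), its core (TGACG), the CArG box and the TATA box (TATAAA), searched on both strands; the CRE contains the core.

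Btg2, chr1:134079106-134079405, minus strand: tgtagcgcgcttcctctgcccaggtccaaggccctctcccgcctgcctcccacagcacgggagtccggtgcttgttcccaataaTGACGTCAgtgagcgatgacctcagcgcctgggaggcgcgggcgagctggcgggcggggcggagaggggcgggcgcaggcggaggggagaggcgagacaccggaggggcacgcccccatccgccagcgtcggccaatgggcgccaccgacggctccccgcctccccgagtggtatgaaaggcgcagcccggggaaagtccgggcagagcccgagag
Npas4, chr19:4989922-4990221, minus strand: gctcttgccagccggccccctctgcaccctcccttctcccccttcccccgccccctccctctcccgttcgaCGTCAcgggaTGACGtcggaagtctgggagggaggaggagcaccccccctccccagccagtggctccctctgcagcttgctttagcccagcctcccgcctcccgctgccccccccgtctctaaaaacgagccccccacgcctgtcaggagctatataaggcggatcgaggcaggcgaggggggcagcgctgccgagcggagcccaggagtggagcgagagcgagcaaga
Fos, chr12:85473640-85473939, plus strand: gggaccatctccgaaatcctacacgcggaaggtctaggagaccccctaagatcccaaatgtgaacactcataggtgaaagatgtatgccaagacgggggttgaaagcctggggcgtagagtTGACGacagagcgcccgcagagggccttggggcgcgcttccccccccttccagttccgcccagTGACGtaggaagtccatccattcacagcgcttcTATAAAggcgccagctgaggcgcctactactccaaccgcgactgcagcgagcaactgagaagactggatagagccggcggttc
Fosb, chr7:19309996-19310295, minus strand: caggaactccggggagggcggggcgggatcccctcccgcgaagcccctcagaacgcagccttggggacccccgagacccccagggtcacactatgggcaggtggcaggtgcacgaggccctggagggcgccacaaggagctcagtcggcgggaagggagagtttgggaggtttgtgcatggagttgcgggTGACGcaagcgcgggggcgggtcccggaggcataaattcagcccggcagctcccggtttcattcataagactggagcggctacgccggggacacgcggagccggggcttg
Nr4a1, chr15:101266596-101266895, plus strand: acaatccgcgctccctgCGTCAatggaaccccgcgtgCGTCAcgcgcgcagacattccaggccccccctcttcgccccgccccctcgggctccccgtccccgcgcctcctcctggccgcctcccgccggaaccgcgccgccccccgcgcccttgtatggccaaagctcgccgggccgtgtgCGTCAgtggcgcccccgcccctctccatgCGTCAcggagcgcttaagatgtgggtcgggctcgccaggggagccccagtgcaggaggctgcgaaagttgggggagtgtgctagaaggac
Egr2, chr10:67537619-67537918, plus strand: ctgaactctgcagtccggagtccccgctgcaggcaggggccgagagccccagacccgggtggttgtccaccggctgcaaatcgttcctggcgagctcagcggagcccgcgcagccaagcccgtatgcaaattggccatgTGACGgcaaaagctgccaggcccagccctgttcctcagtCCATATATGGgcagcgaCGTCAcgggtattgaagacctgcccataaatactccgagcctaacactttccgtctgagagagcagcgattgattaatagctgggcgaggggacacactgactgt
Egr4, chr6:85513540-85513839, minus strand: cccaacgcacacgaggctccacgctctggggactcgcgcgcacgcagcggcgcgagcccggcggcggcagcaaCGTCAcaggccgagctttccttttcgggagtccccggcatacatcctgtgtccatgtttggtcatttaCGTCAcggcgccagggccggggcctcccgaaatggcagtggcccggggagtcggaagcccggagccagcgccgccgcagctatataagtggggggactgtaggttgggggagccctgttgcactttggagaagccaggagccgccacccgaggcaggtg

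The table held windows for 8 of the 10 genes, and each of the 8 had a CRE core in at least 1 window. Btg2 also had the full CRE, from base -166 to base -159 before its start, while the other 7 had the core alone. Npas4, Fos, Egr4 and the Egr2 window printed here carried 2 separate cores, and Nr4a1 carried 4. Of all 27025 genes with a window, 23.0% had a core and 2.03% a full CRE in some window. The core holds a CpG, and the member windows were rich in CpG, with 16 to 35 each against a median of 7. Of all windows with at least 16 CpG, 35.3% had a core, against 10 of the 12 member windows, of which 5 belong to Egr2 and overlap in part. The CArG box, bound by SRF, was found only at Egr2 among the 8 genes, at bases -72 to -63 of the window printed, and in 1.81% of all genes. The site of the Egr proteins themselves (GCGNGGGCG) was in the windows of Fosb, Nr4a1 and Btg2, and in 6.27% of all genes. Neither the AP-1 site (TGANTCA) nor the element bound by Nr4a1 (AAAGGTCA) matched in the 8 genes, and 8.97% and 1.70% of all genes had them. Fos and Junb had the TATA box as spelled here, against 15.7% of all genes. The match of Fos lay at bases -33 to -28, while that of Junb lay at bases 1 to 6, after the annotated start. A match is a string of letters and does not show binding, and elements outside these windows were not searched. The core was present in genes with high ratios and in Egr4 alike.

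Of the 10 genes, 9 had a higher signal in the knockout-labelled pool than in the wild-type pool, and 1, Egr4, a lower one. By the brightest probe set of each gene, 6 of the 10 were at least 1.5-fold higher and 0 were at least 1.5-fold lower. The corresponding shares over all genes, 12244 in number, were 12.5% for 1.5-fold higher and 18.2% for 1.5-fold lower. At least 2-fold higher were 4 of the 10, against 3.47% of all genes, and 0 were at least 2-fold lower, against 6.75%. The median log2 ratio, knockout-labelled over wild type, was 0.93 for the members and -0.06 for all measured genes. By probe set, 8 of 12 were at least 1.5-fold higher, with a median log2 ratio of 0.93, while 3452 of 20967 measured probe sets were. These counts describe 2 libraries. The members were chosen with earlier results of these arrays known, so the comparison with all genes is not an independent one. In whole cortex RNA, a larger share of cells carrying a transcript and more of it per cell cannot be told apart.

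The error available within this series is the disagreement between probe sets of the same gene. Over 5375 genes with 2 measured probe sets, the SD of a single log2 ratio from this source was 0.58, or 1.49-fold, and with genes in 4 equal groups by signal it ranged from 0.49 in the brightest to 0.61 in the second dimmest. It leaves out the spread between mice, dissections and labelling reactions. Each member probe set was set against the SD of its own signal group. Both of Btg2 and those of Npas4, Fos and Nr4a1 lay over 2 such SD from 0. Those of Fosb and Egr2 lay between 1 and 2 SD, and those of Arc, Junb, Egr1 and Egr4 lay within 1 SD. The share of all measured probe sets past 2 SD was not computed, so these positions give no comparison of the members with all genes. For scale, the log2 ratios of all measured genes had an SD of 0.64. At the cut of 2-fold, 5 of the 12 member probe sets were higher and 0 lower. Of 20967 measured probe sets, 1458 were at least 2-fold higher and 1470 at least 2-fold lower.

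**Figure D1:**
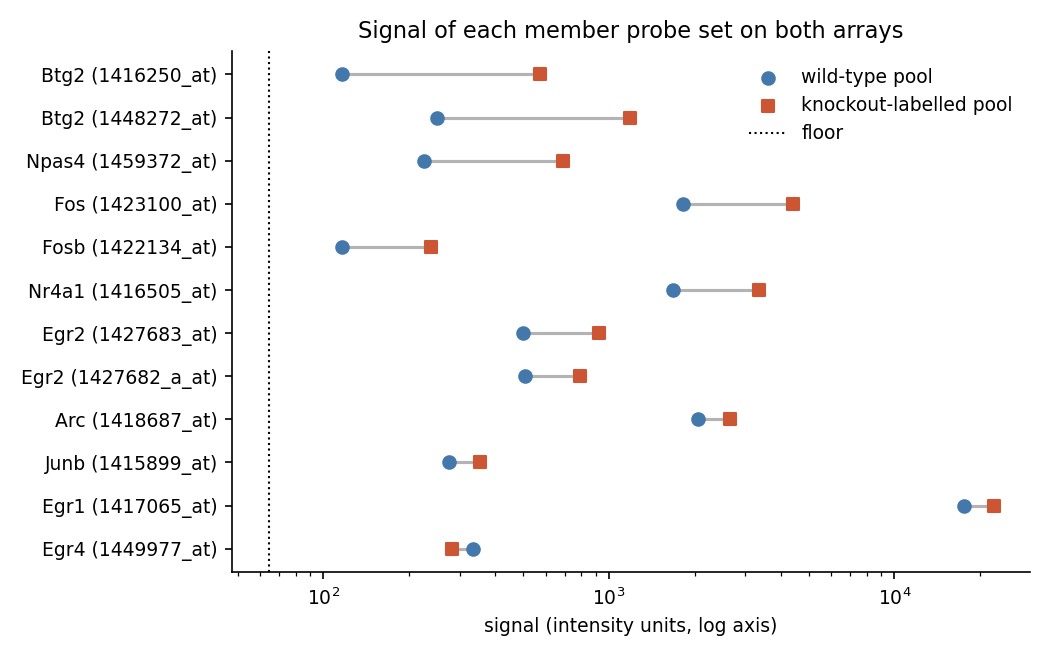
Signal in intensity units on a log axis for each member probe set, with circles for the wild-type pool, squares for the knockout-labelled pool and a dotted line at the floor of 64.2 units; rows run from the highest to the lowest ratio. The square lies to the right of the circle in every row but that of Egr4, and Fosb and the dimmer Btg2 probe set start close to the floor.

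Fos encodes the partner that, with a Jun protein, forms the AP-1 factor, and its RNA is the most used marker of recently active neurons. Its probe set (1423100_at, gene 14281) gave 1816.1 units with wild-type RNA and 4420.1 with knockout-labelled RNA. The knockout-labelled signal was 2.41-fold higher after centring, a log2 ratio of 1.27, or 2.59 SD of the probe set error at this brightness. Of 12244 measured genes 205 had a higher ratio, as did 933 of 20967 measured probe sets. Fos was well above the floor on both arrays, at 28.3 and 68.9 times its level.

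Fosb encodes a second Fos family partner, whose truncated form accumulates with repeated stimulation. Its probe set (1422134_at) gave 115.9 and 237.3 units in the wild-type and knockout-labelled pools, a 2.03-fold difference with a log2 ratio of 1.02. The wild-type signal was only 1.81 times the floor. With the floor at the 60th percentile of all signals, 196.7 units, the gene was no longer measured on both arrays, and quantile normalization lowered its log2 ratio to 0.75.

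Junb encodes a Jun family partner of AP-1 that is itself an immediate early product. Its probe set (1415899_at) gave 274.3 units with wild-type RNA and 352.6 with knockout-labelled RNA. The log2 ratio of 0.35 was 0.57 SD of the probe set error, so this difference was inside the error. The ratio of Fos exceeded that of Junb by 0.92 on the log2 scale, 1.13 times the SD of a difference between probe sets (0.82).

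The Egr genes encode zinc finger factors that bind a shared GC-rich site. Egr1, which is transcribed in cortex even at rest, gave 17543.9 units with wild-type RNA and 22231.4 with knockout-labelled RNA (1417065_at). The log2 ratio was 0.33, or 1.26-fold, within the probe set error. Egr2, which also directs myelination in peripheral nerve, gave 498.6 and 919.6 units on its brightest probe set by mean log2 signal (1427683_at) and 507.4 and 794.1 units on the other (1427682_a_at). Their log2 ratios of 0.87 and 0.63 were both past 1.5-fold and differed by 0.24. Egr4 gave 334.3 units with wild-type RNA and 281.7 with knockout-labelled RNA (1449977_at), a log2 ratio of -0.26 that lay within the error and was between -0.36 and -0.20 under the alternatives. The Egr genes thus had ratios on both sides of 0, with 1 of 3 at least 1.5-fold higher. The distance from Egr2 to Egr4 was 1.13 on the log2 scale, 1.38 times the SD of a difference.

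Nr4a1 encodes an orphan nuclear receptor (Nur77) that is induced in neurons by calcium. Its probe set (1416505_at) gave 1674.4 units with wild-type RNA and 3354.1 with knockout-labelled RNA. The fold was 1.99, a log2 ratio of 0.99, just short of 2-fold and 2.02 SD of the probe set error at this brightness. Like Fos it was well above the floor in both pools, at 26.1 and 52.2 times.

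Npas4 encodes a bHLH-PAS factor found mainly in neurons, which responds to calcium entry and controls inhibitory synapse number and Bdnf. Its probe set (1459372_at, gene 225872) gave 224.3 and 692.7 units in the wild-type and knockout-labelled pools. The fold was 3.06 and the log2 ratio 1.61, with 95 of all measured genes and 562 of 20967 measured probe sets higher. Its partner gene Arnt2 had a log2 ratio of 0.34 on its brightest probe set, within 1.5-fold, and -0.41 on the second.

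Arc encodes a capsid-like protein that travels to active synapses and promotes removal of AMPA receptors. Its probe set (1418687_at) gave 2048.1 units with wild-type RNA and 2646.3 with knockout-labelled RNA. The log2 ratio of 0.36 was 1.28-fold and lay within the error. Arc and Fos are both read as marks of neuronal activity, and here Fos was past 2-fold and Arc within 1.5-fold. Their log2 ratios were 0.91 apart, 1.12 times the SD of a difference between probe sets, and this difference was not tested.

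Btg2 encodes a cofactor that recruits the CCR4-NOT deadenylase and slows the cell cycle, and it is induced by neuronal activity and by p53. It had the highest ratio among the members. The brightest probe set (1448272_at, gene 12227) gave 250.2 units with wild-type RNA and 1182.7 with knockout-labelled RNA, and the other (1416250_at) gave 115.8 and 574.5 units. The knockout-labelled signal was 4.69-fold and 4.92-fold higher, with log2 ratios of 2.23 and 2.30. The probe sets differed by 0.07, against a median difference of 0.416 over all genes with 2 measured probe sets. Of 12244 genes 19 had a higher ratio than the brightest Btg2 probe set, as did 214 of 20967 measured probe sets.

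**Figure D2:**
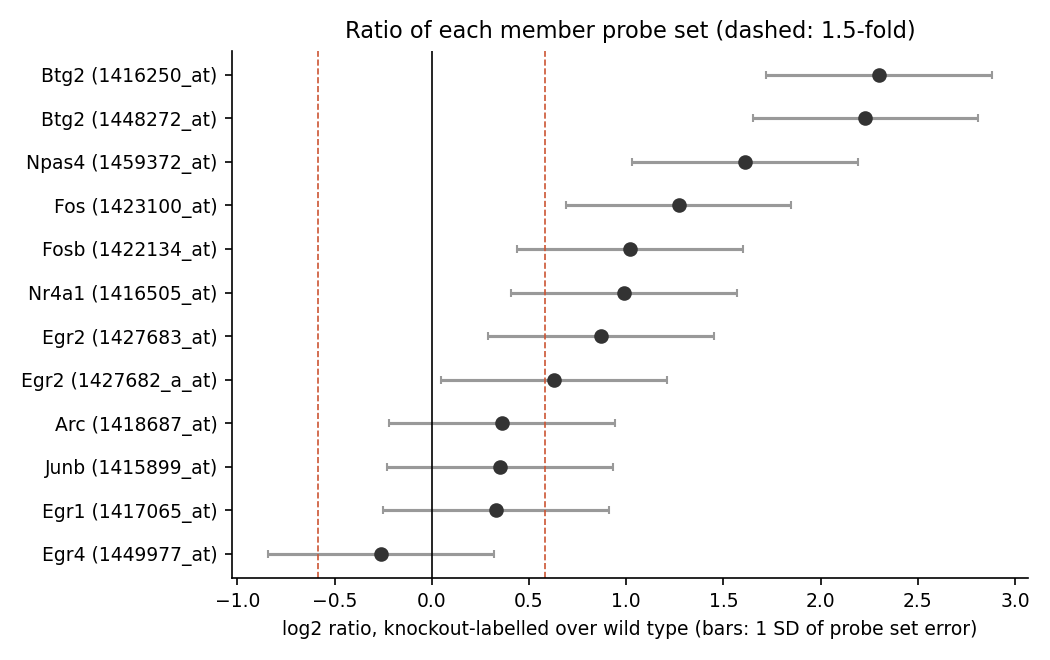
Log2 ratio (knockout-labelled over wild type) for each member probe set; points are single values, bars are 1 SD of the probe set error (0.58) and dashed lines mark 1.5-fold. The bars of Arc, Junb, Egr1 and Egr4 cross 0, and those of the Btg2, Npas4 and Fos probe sets lie wholly above the upper dashed line.

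Ordered by ratio, the genes ran Btg2, Npas4, Fos, Fosb, Nr4a1, Egr2, Arc, Junb, Egr1 and Egr4. None of the 9 gaps between neighbours exceeded the SD of a difference, the widest being 0.61 between Btg2 and Npas4, so neighbours in this order are not separated. From Btg2 to Egr4 the distance was 2.49, or 3.05 times that SD. Within the brightest of the 4 signal groups 9.11% were at least 1.5-fold higher, and of the 4 members there Fos and Nr4a1 were and Arc and Egr1 were not.

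**Figure D3:**
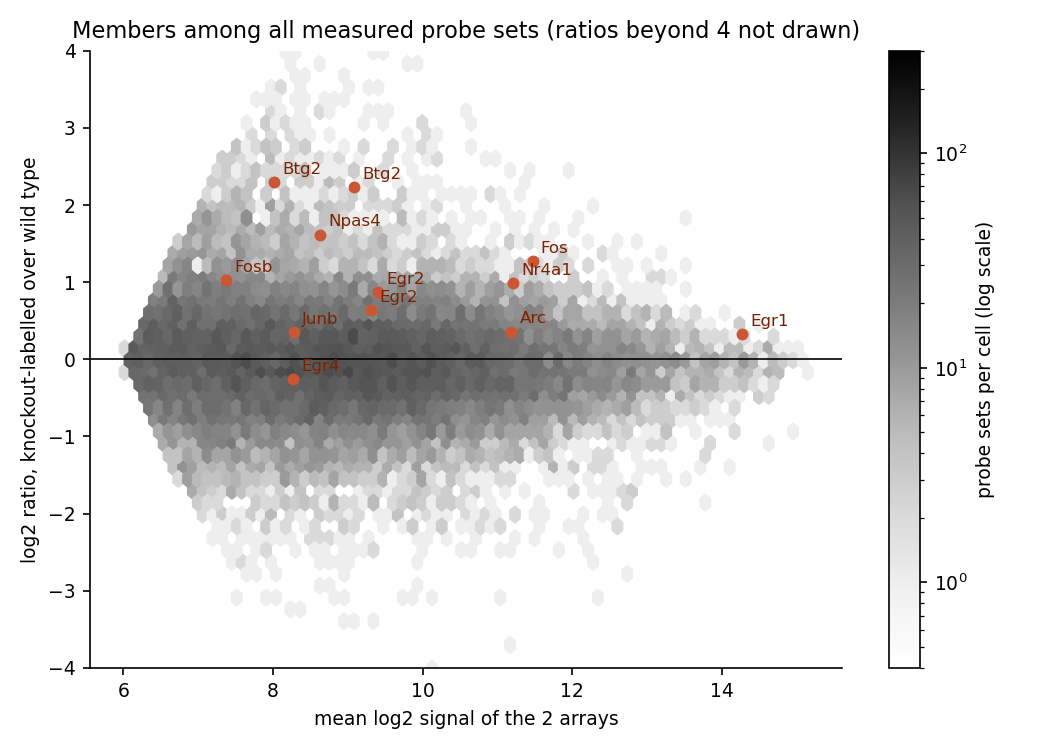
Log2 ratio against the mean log2 signal of the 2 arrays for all 20967 measured probe sets with 1 gene (grey cells, darker for more probe sets) and for the 12 of the members (red points). Both Btg2 points, Npas4 and Fos lie above the dense part of the cloud at their brightness, Arc, Junb and Egr4 lie inside its dense part, and Egr1 lies at the bright end, where few probe sets are; ratios beyond 4 are not drawn.

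By the brightest probe set, most close relatives of the members lay within 1.5-fold between the pools, as did 8485 of all 12244 measured genes. The nearest relative of Btg2, Btg1, was the exception by this measure. It gave 2860 and 6106 units on its brightest probe set and 2275 and 6181.7 units on the second, with log2 ratios of 1.08 and 1.43. In the Nr4a family, Nr4a2 had a log2 ratio of 0.30 on its brightest probe set, and Nr4a3 had 0.23. The other 3 measured probe sets of Nr4a2 had 0.65 to 1.37, all past 1.5-fold. Egr3, the remaining Egr gene, gave 7571.9 and 9273 units, a log2 ratio of 0.28. In the AP-1 family Fosl2 had 0.49, Jund 0.18 and Jun -0.28, although the second Jun probe set gave 0.85, past 1.5-fold. Fosl1 was below the floor on both arrays. Of these 7 relatives with a measured probe set (Fosl2, Jun, Jund, Egr3, Nr4a2, Nr4a3 and Btg1), Btg1 alone was past 1.5-fold by its brightest probe set. Over all genes 12.5% were at least 1.5-fold higher, so this count was near the background.

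A wider list held 54 other activity-regulated genes, of which 47 were measured. Its counts are to be set beside the shares over all genes, 12.5% for 1.5-fold higher and 18.2% for 1.5-fold lower. Among its transcription factors and regulators, 2 of 20 measured genes passed 1.5-fold upward (Btg1 and Ier2, at 1.08 and 0.73) and 1 was lower, so the upward count was near the share over all genes. The median log2 ratio was 0.29, and -0.07 by second brightest probe sets, over the 9 genes with a second one measured. The lower one was Nfil3, a repressor of clock output genes, at -1.11. Among effectors, the genes whose products act at synapses, in signalling or on RNA, 7 of 27 passed 1.5-fold upward and 9 passed it downward, both above the shares over all genes, and the median was -0.07. The signs were mixed, and over the 9 effectors with a second measured probe set the median of that probe set was -0.80. In both lists the second probe sets cover fewer genes, so a change of genes and a change of probe set are not separated. Dusp1, a phosphatase that switches off MAP kinases, had 1753.7 and 4194.6 units and a log2 ratio of 1.25. Zfp36, which destabilises AU-rich RNAs including those of immediate early genes, had 131.1 and 297.6 units and 1.17. Ccn1, a secreted matrix protein gene, was highest at 2.26, from 74.4 units in the wild-type pool, close to the floor. At the other end Bdnf, the neurotrophin that Npas4 and CREB drive, gave 1042.1 units with wild-type RNA and 309.4 with knockout-labelled RNA. Its probe sets had log2 ratios of -1.76 and -1.20. Inhba, an activin subunit gene, had -1.54. Homer1, Nptx2, Nrn1 and Rgs2, picked out after their values had been seen, had -0.62, -1.05, -1.03 and -0.81. The other effectors past 1.5-fold upward were Midn, Trib1, Dusp4 and Ier3, at 0.88, 0.80, 0.79 and 0.60. The others past it downward were Ptgs2, Plk2 and Dusp5, at -0.71, -0.71 and -0.68. The lists were drawn up with earlier results of these arrays known, so these signs are a description of 2 pools.

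Of the signalling genes upstream of the members, 23 of 30 were measured, of which 4 passed 1.5-fold upward and 2 downward. The median log2 ratio was 0.20. Under the alternatives it ran from 0.07 without suffixed probe sets, those whose design may match several transcripts, to 0.39 by second brightest probe sets. Set beside 12.5% and 18.2% of all genes, these counts were close to the background upward and below it downward. The upward count depended on the setting. It was 1 of 22 without suffixed probe sets, against 13.1% of all genes, with 2 lower. By second brightest probe sets it was 7 of 19, against 19.4%, with 0 lower. The highest were Cacna1d, an L-type calcium channel gene, at 1.09 (its other probe set at -0.14), and Elk4, an SRF partner, at 0.77 (0.03). The lowest were the CREB coactivator gene Crebbp at -0.84 and the MAP kinase kinase gene Map2k2 at -0.63 (-0.04). Probe sets of some of these genes disagreed widely: Crebbp had -0.30 on its second probe set and 1.93 on a dimmer one, and Creb1 had -0.35 on its brightest probe set and 2.79 on the second. Srf, the factor that binds the CArG box, had 0.49 and -0.51. The 2 brightest probe sets had opposite signs for Creb1 and Srf, so no direction is given for these genes, in contrast to Btg2 and Egr2, whose probe sets had the same sign. Over all genes with 2 measured probe sets and a brightest one past 1.5-fold, 76.7% had a second of the same sign.

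**Figure D4:**
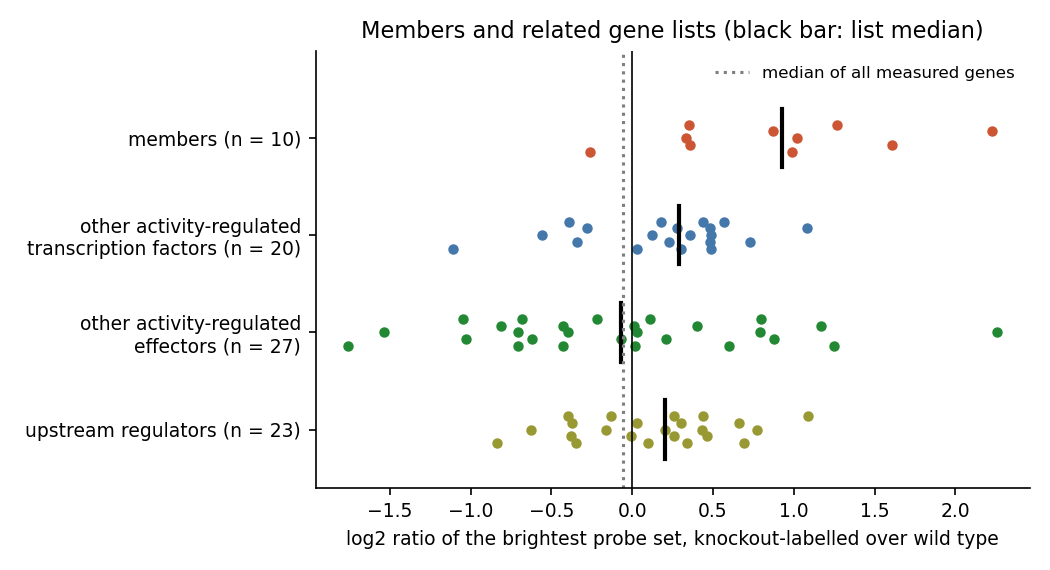
Log2 ratio of the brightest probe set, knockout-labelled over wild type, for the members and for 3 related lists; each point is a gene, black bars are list medians and the dotted line is the median of all measured genes (-0.06). The members have a median of 0.93 and 1 gene below 0, while the effector genes spread from -1.76 to 2.26.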

How the data were processed

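Total RNA from pooled cortex (3 mice per pool) was extracted with Trizol and hybridised to 1 Affymetrix array per genotype, per the labels. The deposited values are linear intensities, 1 per probe set; the submitters' processing notes name GCOS, with a version and signal algorithm not given in the sources used here. Each array of the table deposited by the authors has a mean of 500.0 after trimming 2% at either end, so arrays were scaled alike, while median signals differ (92.0 wild type, 124.9 knockout-labelled). No detection calls were used.

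Controls (64 probe sets) were left out. The floor was the 40th percentile of all other signals, 64.2 units, and a probe set was measured if it reached the floor on both arrays. Log2 ratios were centred by subtracting their median over measured probe sets (0.01). The brightest probe set by mean log2 signal stood for a gene. Names came from the platform annotation, updated through RefSeq (GRCm38.p6) for 34754 of 34945 probe sets with 1 symbol. The error SD is that of the difference between a gene's 2 brightest probe sets, divided by the square root of 2. No test was run with 1 array per group, and their number limits the precision. Genes named are all members, their relatives, and the 3 (effectors and regulators together) or 2 (upstream genes) at either end of the related lists; others are marked. Members and lists were chosen with earlier results of these data known. The 9 alternatives changed the floor, scaling or choice of probe set. Calculations were tested on simulated data, with Python 3.11.15 (matplotlib 3.10.9, numpy 2.4.6, statsmodels 0.14.6, pandas 2.3.3 and scipy 1.17.1).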

Additional observations from a re-analysis of the deposited data

How the results depend on the processing

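With 1 array per genotype no replicate could be left out, and no paired analysis was possible because each group has a single array. A value was taken to have moved when it shifted by over 1 SD of the probe set error, or, for a count, by over 1.5 times. Under the 9 alternatives none of the 81 recomputed log2 ratios of single members moved or changed sign. This was largely fixed in advance. Members other than Btg2 and Egr2 have a single probe set, so the settings on probe set choice could not change their ratios. The floor and centring settings changed only the constant subtracted from every member ratio. It was 0.01 in the main setting and ran from -0.04 to 0.12 under these alternatives, and a larger constant gives lower ratios. For these members only quantile normalization and loess could change a ratio on its own. Btg2 lay between 2.12 and 2.30, Npas4 between 1.51 and 1.67, Fos between 1.17 and 1.43, Nr4a1 between 0.89 and 1.13, Egr2 between 0.63 and 0.93 and Fosb between 0.75 and 1.03. Arc, Junb and Egr1 stayed between 0.22 and 0.58. The median of the members ran from 0.83 without a floor to 0.94 without centring, and was 1.47 over the 2 genes with a second probe set. The count of members at least 1.5-fold higher was 5 of 9 with the floor at the 60th percentile, where Fosb was not measured. The share of all genes was 13.0% there. By second brightest probe sets, which only Btg2 and Egr2 have, it was 2 of 2, against 19.4% of all genes. The count was 6 under the other alternatives, against 12.6% to 17.4% of all genes. No alternative had a member at least 1.5-fold lower, against 15.2% to 27.2% of all genes.

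For the other activity-regulated genes the count at least 1.5-fold higher was 9 of 47, against 12.5% of all genes. It was 5 of 41 with suffixed probe sets left out, against 13.1%, and 4 of 18 by second brightest probe sets, against 19.4%. The count at least 1.5-fold lower was 10 of 47, against 18.2% of all genes. It was 6 of 38 with the floor at the 60th percentile, against 15.2%, and 6 of 18 by second brightest probe sets, against 19.1%. These alternatives all have fewer genes by construction. The median of the list, 0.11, was -0.01 with the floor at the 25th percentile, -0.07 without a floor and -0.33 by second brightest probe sets. Signals close to the floor limit Fosb and the dimmer Btg2 probe set, at 1.81 and 1.80 times the floor in the wild-type pool.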
